A study of Phaseolus vulgaris with 24 samples.

Results

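Roots of Ispir and TR43477, a pair of common bean (Phaseolus vulgaris) genotypes that the study describes as salt-tolerant and salt-susceptible, were compared after growth in salt. The comparison rests on 6 of the 24 libraries of the series, 3 from salt-treated Ispir roots and 3 from salt-treated TR43477 roots, and was chosen by genotype, tissue and treatment alone. Each library is 1 plant grown in hydroponics. Salt-treated plants received 50 mM NaCl on the first day, 100 mM on the second and 125 mM from the third, starting 5 days after transfer, and were sampled after 3 days at 125 mM. Control roots of the same genotypes, grown without added NaCl, gave 6 further libraries and share none with the salt-treated roots. Every difference below is one between 3 plants of each genotype. By the study's methods, Ispir seedlings reached full foliage and were moved to hydroponics later after sowing than TR43477 seedlings. Plant age since sowing therefore also differed between the genotypes, and its part in the differences was not tested. Whether the plants of 1 genotype are genetically uniform is not given in the sources used here, and fewer cells of a type and less RNA per cell cannot be told apart in whole roots.

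Roots that meet salt must keep sodium out or store it, hold on to potassium and calcium, and go on growing while proteins and membranes are under osmotic and ionic stress. Heat shock proteins are chaperones that bind unfolded proteins, pectin- and xyloglucan-modifying enzymes loosen or stiffen the wall, and metal transporters move zinc, copper and iron into and through the root. The names used for genes here are those of the study's own annotation tables. The grouping of 374 genes into lists by role was made here. The deposited identifiers matched no entry of the reference table. The study drew up its tables from salt responses in the same plants, so a list that moves here is not independent evidence of its direction.

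Libraries held 12169538, 14235824 and 13534602 counts for the Ispir roots and 15385212, 26416766 and 22916494 counts for the TR43477 roots, so the TR43477 roots were read more deeply. Libraries of 1 genotype correlated at r = 0.975 to 0.990 within Ispir and 0.991 to 0.994 within TR43477 across genes, against 0.953 to 0.969 between the genotypes. The tissue label held for root against leaf, read on 3 root genes (a nitrate transporter, a ferric reductase-related gene and an isoflavone hydroxylase). They summed to 112 to 276 CPM (counts scaled to library size, here to the total alone and for single genes also by TMM factors) in salt-treated Ispir roots. The sum was 757 to 1332 CPM in salt-treated TR43477 roots, and at most 0.999 CPM in any leaf library. In control roots it was 1207 to 1502 CPM in Ispir and 836 to 2002 CPM in TR43477. The nitrate transporter is itself called below, so the sum is no measure of root content between the genotypes.

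Across all genes, 820 were higher (3.43%) and 611 were lower (2.56%) in Ispir than in TR43477 salt-treated roots, among 23898 tested. Below, a gene said to have risen or fallen (rose, fell) was higher or lower in Ispir than in TR43477. These words do not name a response to salt. A gene was called, that is counted as a differentially expressed gene (DEG), when its absolute log2 fold change, Ispir over TR43477, was above 1 and its adjusted p from the quasi-likelihood test of edgeR was under 0.01; 5.99% of the genes tested met both. Of the 1431 DEGs, 596 differed by 1 to 2 log2 units, 471 by 2 to 4 and 364 by more than 4. These classes use fitted values. For the 111 DEGs counted in 1 genotype only, as defined below, the fitted fold is no bound. The 6 libraries of every one of them fell into non-overlapping groups, against 36.0% of all genes tested. The DEGs were selected on these same 6 libraries, so this is no separate support for the calls. In all 6 refits that leave out 1 library, 548 of the 1431 were called again. The count fell to 743 without Ispir replicate 3, 757 without TR43477 replicate 1, 937 without TR43477 replicate 2 and 632 without TR43477 replicate 3, each refit having 2 libraries in 1 of the groups.

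The chaperone genes of the heat shock list stood out by size. Of its 9 members, all tested, 5 rose in Ispir (55.6% called, against 5.99% of all genes tested) and 0 fell, with a median log2 fold change of 2.499 over the list, against −0.02 over all genes tested. The study named Phvul.004G107700, Phvul.003G154800, Phvul.004G129400 and Phvul.009G080200 for intense upregulation in Ispir roots, read on these same plants. The share called and the median were therefore partly set by that choice. Heat shock protein 90 (Phvul.004G107700; chromosome 4, 37559388 to 37562590, assembly v2.1), a chaperone of signalling proteins, had 237, 291 and 289 CPM in Ispir roots and 56.3, 57.0 and 60.1 CPM in TR43477 roots, a log2 fold change of 2.24 (SE 0.14, adjusted p = 0.000119). The small heat shock protein gene Phvul.004G129400, of a family that keeps unfolded proteins soluble, had 13.36, 9.95 and 11.97 CPM in Ispir and 0.268, 0.182 and 0.307 CPM in TR43477 (log2 fold change 5.53, SE 0.29). As for every DEG, the libraries of the genotypes did not overlap for these 2 chaperone genes. The spread among TR43477 plants was small. The class II small heat shock gene Phvul.009G080200 had 29.1, 17.9 and 21.8 CPM in Ispir against 1.27, 2.95 and 1.31 CPM in TR43477, and Heat shock 70 kDa protein 5 (Phvul.003G154800) 13.6, 27.5 and 24.1 CPM against 4.29, 4.63 and 2.63 CPM. The HSP20 family gene Phvul.006G046000 was low in both, at 2.24 ± 1.09 CPM in Ispir and 0.286 ± 0.0363 CPM in TR43477 (SD, n = 3 each), and was no longer called without any 1 of 5 of the libraries; the adjusted p reached 0.0388 without TR43477 replicate 3. The other 4 kept their calls under each of the 6 omissions.

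In control roots the same 5 chaperone genes gave log2 fold changes of 0.21, −0.04, −0.09, −0.43 and 0.09, in the order above, none with an adjusted p below 0.632. Heat shock protein 90 stood at 78.0, 68.5 and 82.4 CPM in control Ispir roots and 78.8, 78.1 and 40.8 CPM in control TR43477 roots, so the groups overlapped. The test of the difference between the salt and the control comparison (the genotype by salt interaction) gave adjusted p-values of 0.0305, 0.0604, 0.0441, 0.150 and 0.305 for the 5, none under 0.01. Of the members not called, 2 late embryogenesis abundant genes and an alpha crystallin gene had log2 fold changes of 0.72 to 2.78 (adjusted p = 0.0277 to 0.283), and the heat stress transcription factor gene Phvul.002G155300, a regulator of chaperone genes, had 83.6 ± 9.91 CPM in Ispir and 77.8 ± 11.9 CPM in TR43477.

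**Figure D1:**
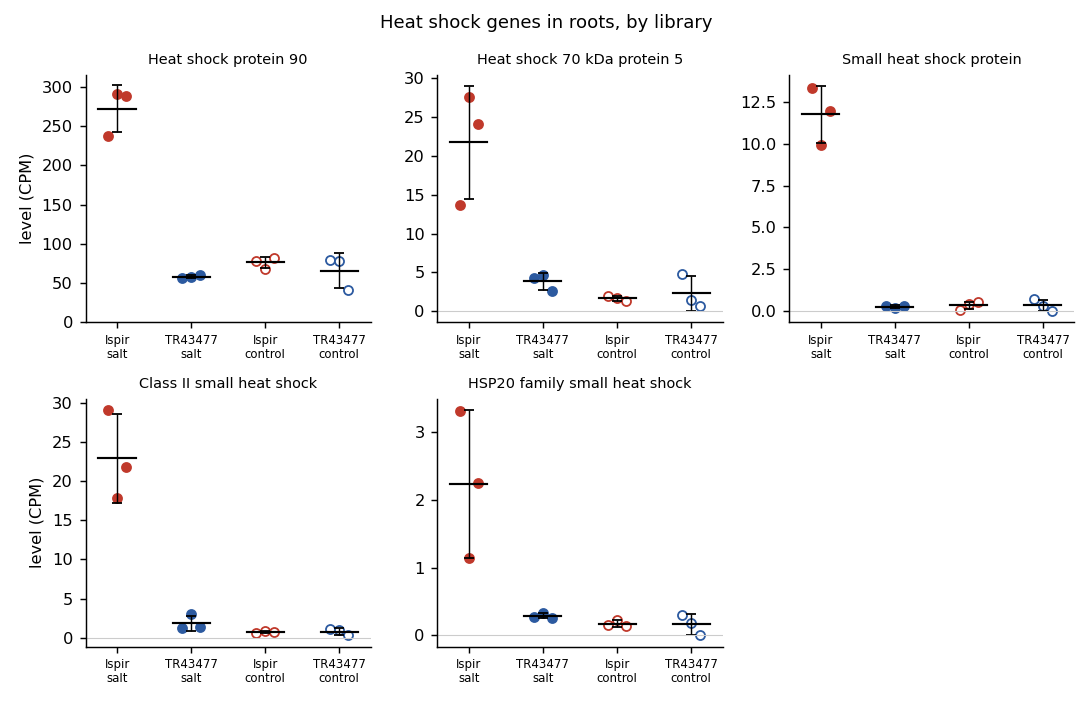
Levels (CPM, linear y axes) of the 5 called heat shock genes in each root library; filled circles are salt-treated and open circles control plants, red Ispir and blue TR43477, with the mean (bar) and SD (n = 3). Salt-treated Ispir roots, at 237 to 291 CPM for heat shock protein 90, lie above every other group in each panel.

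Genes for the cell wall differed in both directions. Of 28 members tested, 5 rose in Ispir and 2 fell (25% called, against 5.99% of all genes tested). The median was 0.58 (0.61 with genes at the floor of 3 counts set to their bound). The pectinesterase gene Phvul.002G318500, of a family that removes methyl groups from pectin, had 25.6, 67.9 and 40.2 CPM in Ispir roots and 0.871, 1.24 and 1.71 CPM in TR43477 roots (log2 fold change 5.09, SE 0.43, adjusted p = 0.000283). The xyloglucan:xyloglucosyl transferase gene Phvul.009G233200, which cuts and rejoins xyloglucan chains, had 174, 300 and 171 CPM in Ispir and 20.6, 22.9 and 13.1 CPM in TR43477 (log2 fold change 3.51). In Ispir the second plant was the highest for each of these, and no Ispir plant came near the TR43477 range. In the other direction, the pectate lyase 11-related gene Phvul.004G059200, of a family that cuts de-esterified pectin, had 0.581, 0.782 and 1.16 CPM in Ispir and 7.64, 24.5 and 20.9 CPM in TR43477 (log2 fold change −4.38, SE 0.51, adjusted p = 0.00122). These kept their calls under each omission.

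A polygalacturonase gene, Phvul.008G109200 (chromosome 8, 12298571 to 12300950), of a family that cleaves pectin backbones, was counted in Ispir only. It had 20.8, 18.05 and 16.6 CPM in Ispir roots and 0 counts in each TR43477 root library, at least 126-fold higher against a floor of 3 counts per TR43477 library. In control roots it likewise had 14.9 ± 5.07 CPM in Ispir and 0 counts in each TR43477 library, so this difference was present without salt. A BURP-domain gene (Phvul.011G046300; 240 ± 14.1 CPM in Ispir, 57.4 ± 18.6 CPM in TR43477) and an inhibitor of fructosidase gene (Phvul.003G117100; 16.3 ± 6.42 and 2.097 ± 1.03 CPM) also rose. The pectinesterase 32-related gene Phvul.003G126500 fell (5.72 ± 1.99 CPM in Ispir, 16.6 ± 2.33 CPM in TR43477). For these 3 the call was lost in at least 1 omission, with adjusted p up to 0.0104 and 0.0136 for the genes that rose, without TR43477 replicate 3 and replicate 1, and 0.0428 for the one that fell, without Ispir replicate 3.

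Metal transport genes lay mostly lower in Ispir. Of 31 members tested, 0 rose and 5 fell (16.1% called, against 5.99% of all genes tested). A log2 fold change below 0 was found for 23 of them, against 12502 of the 23898 genes tested. The median was −0.91 (−0.66 with genes at the floor set to their bound), against −0.02 over all genes. The zinc transporter 10 precursor gene Phvul.002G100001 had 6.64, 6.18 and 8.27 CPM in Ispir roots and 224, 156 and 243 CPM in TR43477 roots (log2 fold change −4.88, SE 0.23, adjusted p = 5.08e-05). It also fell in control roots, with 15.3 ± 1.95 CPM in Ispir and 205 ± 48.3 CPM in TR43477. A second zinc transporter 10 precursor gene on the same chromosome, Phvul.002G099700, had 245, 368 and 455 CPM in Ispir and 1271, 876 and 1430 CPM in TR43477, and the zinc cation efflux gene Phvul.003G021300 had 49.4, 99.4 and 133 CPM against 406, 370 and 533 CPM. Paralogs this close may share reads, so the split of counts between the 2 zinc transporter 10 genes is uncertain.

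The Ctr family copper transporter gene Phvul.011G060500, whose family imports copper, had 2.41, 1.14 and 2.90 CPM in Ispir and 20.2, 12.4 and 26.8 CPM in TR43477. The zinc transporter 11 precursor gene Phvul.L007443 fell to 1.71 ± 0.199 CPM in Ispir, against 6.78 ± 0.806 CPM in TR43477. The calls of Phvul.003G021300 and Phvul.002G099700 were lost without TR43477 replicate 3 (adjusted p = 0.0208 and 0.0260, the highest of their omissions), and the other 3 kept theirs. The ferric reductase-related gene Phvul.010G101500, whose family reduces iron at the root surface before uptake, had 22.9, 75.2 and 171 CPM in Ispir and 805, 605 and 1090 CPM in TR43477, an adjusted p of 0.0136; it was singled out here after its values were seen. Its libraries did not overlap between the genotypes, and its adjusted p was above the threshold.

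**Figure D2:**
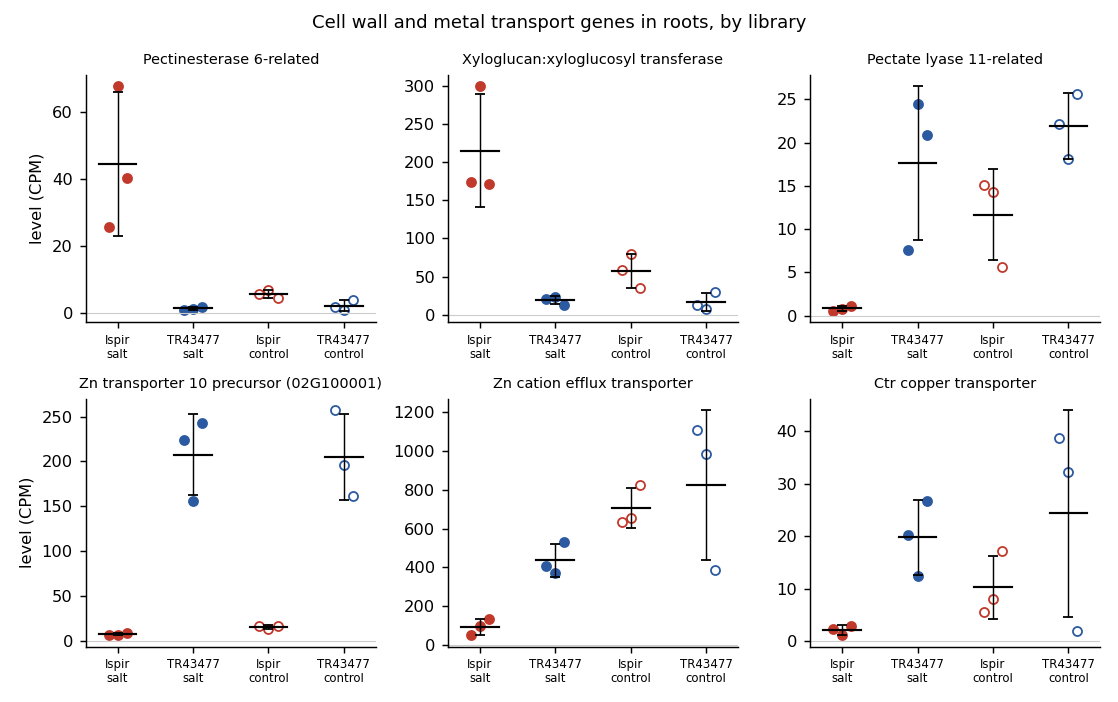
Levels (CPM, linear y axes) of 3 cell wall genes and 3 metal transport genes in each root library, with the mean (bar) and SD (n = 3); filled circles are salt-treated and open circles control plants. The pectinesterase and xyloglucan transferase genes are highest in salt-treated Ispir roots and the other 4 lowest there, and the zinc transporter 10 gene Phvul.002G100001 stands at 15.3 CPM in control Ispir roots, above the salt-treated ones and below every TR43477 root.

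Potassium, sodium and calcium transport genes mostly did not differ beyond the threshold. Among 14 potassium genes 1 was called, a share of 7.14% that is near the 5.99% of all genes tested: the K+ transporter 1 gene Phvul.002G185300, of a family of inward potassium channels, had 10.96, 16.8 and 14.3 CPM in Ispir roots and 3.82, 2.22 and 2.98 CPM in TR43477 roots (log2 fold change 2.24, SE 0.26, adjusted p = 0.00126). In control roots its log2 fold change was −1.02, with 26.7 ± 6.97 CPM in Ispir and 54.3 ± 30.4 CPM in TR43477; the interaction had an adjusted p of 0.0359. The highest and the lowest potassium members by fitted fold, Phvul.001G246500 and Phvul.008G231614, averaged 0.464 CPM in Ispir and 0 in TR43477 for the first, and 0 in Ispir and 0.0146 CPM in TR43477 for the second, which is at or near the floor. Among 6 sodium genes, 1 fell (16.7% called, against 5.99% of all genes tested). It was the Na+/H+ exchanger 2 gene Phvul.006G097100, which by name trades sodium for protons across membranes. It had 2.24, 1.78 and 2.39 CPM in Ispir and 7.84, 5.58 and 5.17 CPM in TR43477 (log2 fold change −1.53, adjusted p = 0.00675). That call was lost in each of the 6 omissions, with adjusted p up to 0.0311 without TR43477 replicate 1. The highest sodium member, the Na+/H+ antiporter gene Phvul.003G089800, had a log2 fold change of 0.40 (adjusted p = 0.488).

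Among 9 calcium genes, 1 rose and 1 fell (22.2% called, against 5.99% of all genes tested). The Ca2+ exchanger 7 gene Phvul.001G105400, which by name moves calcium across membranes, rose. It had 19.5, 25.7 and 22.2 CPM in Ispir and 5.29, 6.78 and 4.91 CPM in TR43477 (log2 fold change 1.98, SE 0.19, adjusted p = 0.000512). The calcium ATPase-type gene Phvul.001G155201 fell to 8.38 ± 3.04 CPM in Ispir, against 21.7 ± 2.104 CPM in TR43477, a call kept in 1 of the 6 omissions, with adjusted p up to 0.0408 without Ispir replicate 3.

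Of 16 genes for nutrient and other transport, 3 rose and 2 fell (31.25% called, against 5.99% of all genes tested). The nitrate/nitrite transporter gene Phvul.011G083500, of the family that takes up nitrate from the medium, had 21.5, 16.5 and 36.1 CPM in Ispir roots and 179, 65.4 and 165 CPM in TR43477 roots (log2 fold change −2.46, SE 0.43, adjusted p = 0.00728). The predicted transporter gene Phvul.007G103300 fell as well (30.7 ± 13.3 and 127 ± 23.9 CPM). An amino acid permease 1-related gene (Phvul.001G077000; 69.1 ± 9.77 CPM in Ispir, 17.9 ± 8.48 CPM in TR43477), a major facilitator permease gene (Phvul.011G189900; 93.6 ± 12.3 and 22.2 ± 6.88 CPM) and a nodulin-like gene (Phvul.001G180500; 8.28 ± 3.06 and 0.215 ± 0.265 CPM) rose. In control roots the nodulin-like gene had 0.0715 to 0.147 CPM in Ispir and 0.122 to 0.497 CPM in TR43477. The permease gene Phvul.011G189900 kept its call under each omission; for the other 4 the highest adjusted p ran from 0.0156 to 0.0319.

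Photosynthesis genes, which mark green tissue, were low in roots but higher in Ispir. Of 58 members tested, 9 rose and 0 fell (15.5% called, against 5.99% of all genes tested). A log2 fold change above 0 was found for 44 of them, against 11396 of the 23898 genes tested, and the median was 0.66. The early light-induced protein 1 gene Phvul.007G062000, a chlorophyll-binding stress protein of plastids, had 420, 141 and 210 CPM in Ispir and 10.2, 15.5 and 13.36 CPM in TR43477 (log2 fold change 4.30, SE 0.42, adjusted p = 0.000598). The ferredoxin gene PetF (Phvul.006G216600), which carries electrons from photosystem I, had 21.99, 22.3 and 21.8 CPM against 0.670, 1.97 and 0.789 CPM. PsbS (Phvul.009G125100), which triggers dissipation of excess light, had 10.4 ± 4.24 CPM in Ispir and 0.918 ± 0.352 CPM in TR43477.

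The antenna genes Lhcb1 (Phvul.002G196400) and Lhcb4 (Phvul.010G002100), which bind chlorophyll, had 10.7 ± 1.37 and 47.2 ± 2.22 CPM in Ispir, against 1.92 ± 0.769 and 14.9 ± 3.26 CPM in TR43477. PsaK (Phvul.002G140800), a photosystem I subunit, had 18.7 ± 4.22 CPM in Ispir and 5.36 ± 1.75 CPM in TR43477, a call lost without TR43477 replicate 3 (adjusted p = 0.0228); the 5 genes before it kept theirs. The Rubisco activase gene Phvul.010G016000, which keeps the carbon-fixing enzyme active and was grouped with primary metabolism, had 9.54, 9.38 and 13.2 CPM in Ispir and 0.0670, 0.219 and 0.0876 CPM in TR43477 (log2 fold change 6.23, SE 0.39). The whole list of 60, on CPM relative to the library total alone as for the root genes above, summed to 789, 504 and 567 CPM in salt-treated Ispir roots and to 165, 228 and 182 CPM in salt-treated TR43477 roots, and without the early light-induced gene to 353 to 373 CPM and 155 to 212 CPM. In control roots the sum was 384 to 465 CPM in Ispir and 304 to 822 CPM in TR43477. Without the early light-induced gene it was 350 to 391 CPM in control Ispir and 270 to 804 CPM in control TR43477 roots. On that sum salt-treated Ispir roots were near their controls, and salt-treated TR43477 roots were below theirs. In leaves the whole list summed to 12201 to 107334 CPM. Leaf markers thus moved with genotype in salt-treated roots, and their part in the other differences was not tested.

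Steps of sugar and carbon metabolism were called in few places. The invertase-type gene Phvul.001G191600, placed by the study at the cleavage of sucrose into glucose and fructose, had 5.06, 11.5 and 11.5 CPM in Ispir roots and 53.3, 52.2 and 39.8 CPM in TR43477 roots (log2 fold change −2.36, SE 0.30, adjusted p = 0.00183). In control roots it had 0 to 0.302 CPM in Ispir and 0.122 to 0.152 CPM in TR43477. A gene of hexose phosphorylation, Phvul.008G180200, fell to 4.13 ± 0.496 CPM in Ispir, against 9.79 ± 0.746 CPM in TR43477. Of the 7 genes of these steps 5 were not called (28.6% called, against 5.99% of all genes tested). The most different of those, Phvul.001G209600 of the sucrose and fructose interconversion, had 221, 420 and 241 CPM in Ispir and 107, 156 and 110 CPM in TR43477 (log2 fold change 1.24, adjusted p = 0.0211).

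The sucrose-phosphate synthase 4-related gene Phvul.005G002600, of the enzyme family that makes the precursor of sucrose, had 33.9, 140 and 65.9 CPM in Ispir and 4.82, 14.001 and 8.06 CPM in TR43477 (log2 fold change 3.14, SE 0.56, adjusted p = 0.00857), and the second plant of each genotype was the highest. Its adjusted p reached 0.0437 without TR43477 replicate 3. Of 32 carbon metabolism genes, an oxoglutarate dehydrogenase gene of the citric acid cycle rose (Phvul.007G011400; 19.5 ± 5.81 and 3.58 ± 1.41 CPM) and a glycolytic gene fell (Phvul.001G045700; 5.49 ± 1.88 and 19.8 ± 4.50 CPM), which is 6.25% of the list and close to the background. The lowest carbon member by fitted fold, Phvul.008G282000, was at the floor in both genotypes.

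Of 27 genes of amino acid metabolism, 2 rose and 1 fell (11.1% called, against 5.99% of all genes tested). The genes Phvul.001G266600 and Phvul.006G105400, which the study places at the step to threonine by way of serine and glycine, had 190 ± 20.8 and 45.2 ± 12.8 CPM in Ispir and 91.5 ± 7.85 and 18.1 ± 3.40 CPM in TR43477. The gene Phvul.002G186000, of the step from aspartate to beta-alanine, had 0 counts in each Ispir library and 1.04 ± 0.273 CPM in TR43477, at least 4.59-fold lower in Ispir against the floor. Of the 12 primary metabolism genes outside these lists, 4 rose and 1 fell (41.7% called, against 5.99% of all genes tested). Among them, the Rubisco activase gene kept its call under each omission, while a methionine-gamma-lyase gene (Phvul.L005001; 145 ± 13.3 CPM in Ispir, 60.2 ± 16.6 CPM in TR43477) and an alanine-glyoxylate transaminase gene (Phvul.008G087600; 272 ± 42.7 and 121 ± 23.1 CPM) rose, and a nicotinate phosphoribosyltransferase gene (Phvul.002G017800; 8.89 ± 3.47 and 34.7 ± 9.99 CPM) fell. None of these 6 beside the activase kept its call in every omission, with adjusted p up to 0.0218 to 0.0481.

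Few defence genes were called, and those were higher in Ispir. Of 23 tested, 3 rose and 0 fell (13.043% called, against 5.99% of all genes tested). The list as a whole went both ways: 15 members had a log2 fold change above 0 and 8 below. The basic endochitinase gene Phvul.009G116500, of a family that digests fungal chitin, had 302, 399 and 186 CPM in Ispir roots and 11.4, 25.4 and 12.5 CPM in TR43477 roots (log2 fold change 4.16, SE 0.41, adjusted p = 0.000612). A peroxidase gene, Phvul.008G086800, had 22.3, 9.88 and 18.1 CPM in Ispir and 0.469, 1.09 and 0.394 CPM in TR43477, and it was also called in control roots (9.65 ± 3.45 and 0.758 ± 0.403 CPM). In control roots the endochitinase gene overlapped, with 88.3, 101 and 61.4 CPM in Ispir and 92.6, 7.08 and 6.46 CPM in TR43477. A trypsin and protease inhibitor gene (Phvul.011G169900; 10.6 ± 6.71 and 0.629 ± 0.423 CPM) rose, a call lost without TR43477 replicate 1 (adjusted p = 0.0233).

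Of 19 genes of specialized metabolism, 2 rose and 3 fell (26.3% called, against 5.99% of all genes tested). The cinnamyl-alcohol dehydrogenase gene Phvul.011G022300, of the last step to lignin monomers, had 4.40, 4.55 and 3.99 CPM in Ispir and 28.5, 15.7 and 25.98 CPM in TR43477 (log2 fold change −2.44, SE 0.25, adjusted p = 0.000709) and kept its call under each omission. The feruloyl-CoA ortho-hydroxylase gene Phvul.005G061066, of a coumarin-forming enzyme, had 1.58, 1.71 and 8.71 CPM in Ispir and 40.1, 31.7 and 56.6 CPM in TR43477. A neighbour called in the same direction, Phvul.005G061132, had 1.58, 1.71 and 8.27 CPM and 33.8, 27.2 and 48.5 CPM, so nearly the same counts in every library, and these genes may share reads. An isoflavone 2'-hydroxylase gene (Phvul.010G012900) had 0 counts in each Ispir library and 1.43 ± 0.215 CPM in TR43477, at least 6.32-fold lower in Ispir against the floor. The cytochrome P450 gene Phvul.008G155000 (19.0 ± 1.95 and 5.00 ± 2.57 CPM) and the alkane hydroxylase gene Phvul.004G005400 (17.61 ± 2.31 and 3.04 ± 1.54 CPM) rose; calls other than that of the dehydrogenase were lost in at least 1 omission, with adjusted p up to 0.0155 to 0.0362.

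Regulators and signalling genes numbered 28, of which 4 rose and 1 fell (17.9% called, against 5.99% of all genes tested). The gene Phvul.009G199200, annotated as PHYB activation tagged suppressor 1, a cytochrome P450 that inactivates brassinosteroids in Arabidopsis, had 29.1, 68.9 and 35.0 CPM in Ispir and 4.35, 3.76 and 5.87 CPM in TR43477 (log2 fold change 3.25, SE 0.36, adjusted p = 0.000988). The abscisic acid receptor gene PYL5 (Phvul.008G220600), which senses the hormone of drought and salt stress, had 56.4, 40.2 and 41.7 CPM in Ispir and 20.1, 18.9 and 23.0 CPM in TR43477, a log2 fold change of 1.16. In control roots PYL5 had 257 ± 47.8 CPM in Ispir and 102 ± 32.2 CPM in TR43477, a log2 fold change of 1.33, so the difference was of like size at a higher level in both. A RING zinc finger gene (Phvul.007G061000; 9.78 ± 2.57 and 1.40 ± 0.862 CPM) and a MADS box gene (Phvul.007G065100; 10.5 ± 0.786 and 3.13 ± 0.736 CPM) rose. A protein kinase domain gene (Phvul.001G048600) had 0 counts in each Ispir library and 1.39 ± 0.286 CPM in TR43477, at least 6.14-fold lower in Ispir. The first of the 5 kept its call under each omission, and the others had adjusted p up to 0.0109 to 0.0308.

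Of the remaining 36 annotated genes tested, 4 rose and 3 fell (19.4% called, against 5.99% of all genes tested). The glyoxalase I gene Phvul.005G176100, of the enzyme that detoxifies methylglyoxal, had 4.32, 4.12 and 11.8 CPM in Ispir and 45.3, 45.6 and 81.97 CPM in TR43477 (log2 fold change −3.09, SE 0.45, adjusted p = 0.00322). The monothiol glutaredoxin S13 gene Phvul.011G122900, of a family of redox proteins, had 72.4, 103 and 87.3 CPM in Ispir and 8.24, 21.3 and 7.27 CPM in TR43477. The myeloid leukemia factor gene Phvul.010G083700 had 16.4, 20.7 and 17.63 CPM in Ispir and 1.41, 1.13 and 1.18 CPM in TR43477 (log2 fold change 3.89, SE 0.20, adjusted p = 6.1e-05). A plastid-lipid-associated gene fell (Phvul.009G053500; 48.8 ± 10.7 and 159 ± 32.9 CPM), and a dynein light chain gene (Phvul.002G312600; 47.5 ± 0.667 and 10.6 ± 5.25 CPM) and a gene of unknown function (Phvul.009G024301; 73.2 ± 21.2 and 10.5 ± 4.36 CPM) rose. Of the 7, those of the myeloid leukemia factor, the plastid-lipid-associated protein and the unknown protein kept their calls in every omission; the others had adjusted p up to 0.0140 to 0.0398.

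The qRT-PCR list holds 10 genes. None was called, and their log2 fold changes ran from −0.77 to 2.39. The reference gene of that assay, Actin-11 (Phvul.008G011000), had 578 ± 161 CPM in Ispir and 614 ± 52.0 CPM in TR43477. Over all 374 annotated genes, 365 were tested, 44 rose and 23 fell, or 18.4% of those tested against 5.99% of all genes tested, and 28 of the 67 were called in every omission.

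**Figure D3:**
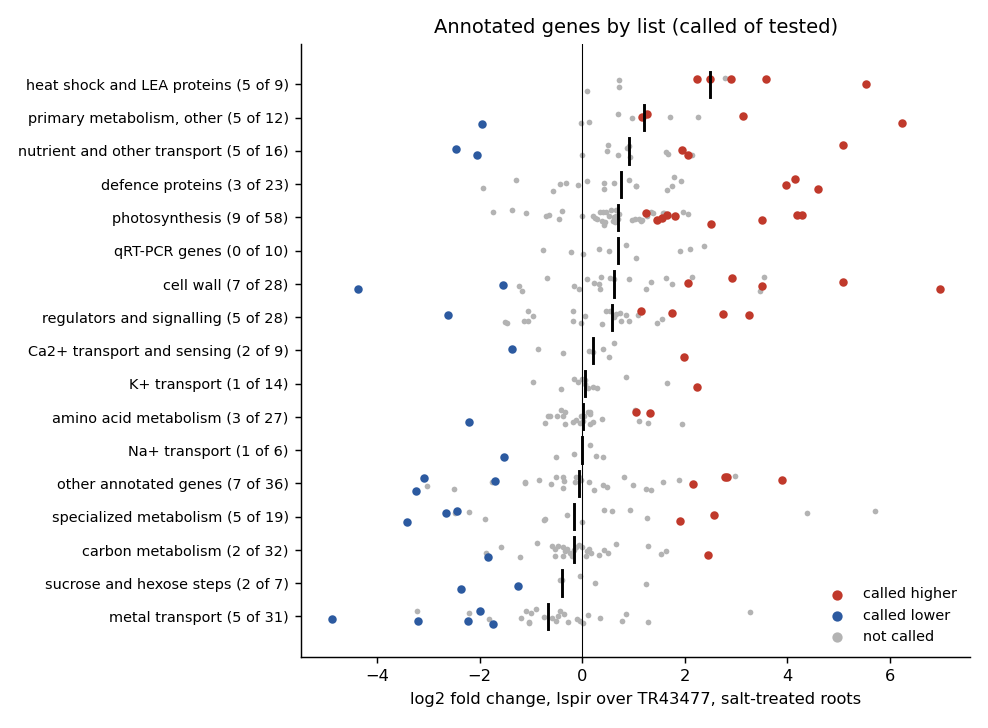
Log2 fold changes, Ispir over TR43477, of the annotated genes in salt-treated roots by list; black bars are list medians, coloured points genes called, and genes at the floor of 3 counts in 1 genotype are drawn at their bound. The heat shock list lies highest, with a median of 2.499, and the metal transport list lowest, at −0.66.

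Most differences in salt-treated roots were also present, in direction, without salt. Of the 1431 DEGs, all were tested in control roots, and 1325 (92.6%) had a log2 fold change of the same sign there, against 67.7% of all genes tested in both. In control roots 234 genes were higher and 255 were lower in Ispir, which is 2.07% of 23626. Of those 489, 329 were DEGs of the same direction in salt-treated roots, or 67.3% of the control calls and 23.0% of the salt calls, and 0 were called in opposite directions. The genes higher in Ispir had a median of 2.18 under salt and 1.30 in control roots, and those lower in Ispir −2.44 under salt and −2.15 in control roots. Of the 67 annotated DEGs, 44 (65.7%) had the same sign and 4 were called in control roots too; the study picked these genes for their salt responses.

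No gene passed both thresholds for the genotype by salt interaction in edgeR, among 24210 tested; 2975 (12.3%) had an unadjusted p under 0.05, and DESeq2 called 253 and an adjusted p limit of 0.05 gave 62. The smallest adjusted p belonged to Phvul.006G048000 (0.0107), which had 88.4, 82.1 and 91.8 CPM in salt-treated Ispir roots, 45.4, 41.7 and 33.5 CPM in salt-treated TR43477 roots, and 39.9, 29.1 and 39.5 CPM against 92.8, 78.9 and 70.5 CPM in control roots. The order of the genotypes was turned round between the treatments for this gene. Lhcb1 (Phvul.002G196400) followed, at 0.0202, with 9.79, 12.3 and 10.1 CPM in salt-treated Ispir roots and 2.75, 1.79 and 1.23 CPM in salt-treated TR43477 roots, but 15.3, 16.3 and 14.4 CPM against 34.7, 25.7 and 62.4 CPM in control roots. Phvul.011G138500 had the same adjusted p, with 39.9, 27.6 and 33.7 CPM in salt-treated Ispir roots and 0.871, 0.729 and 0.789 CPM in salt-treated TR43477 roots, and 11.7, 11.8 and 10.9 CPM against 1.06, 1.22 and 1.42 CPM in control roots.

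**Figure D4:**
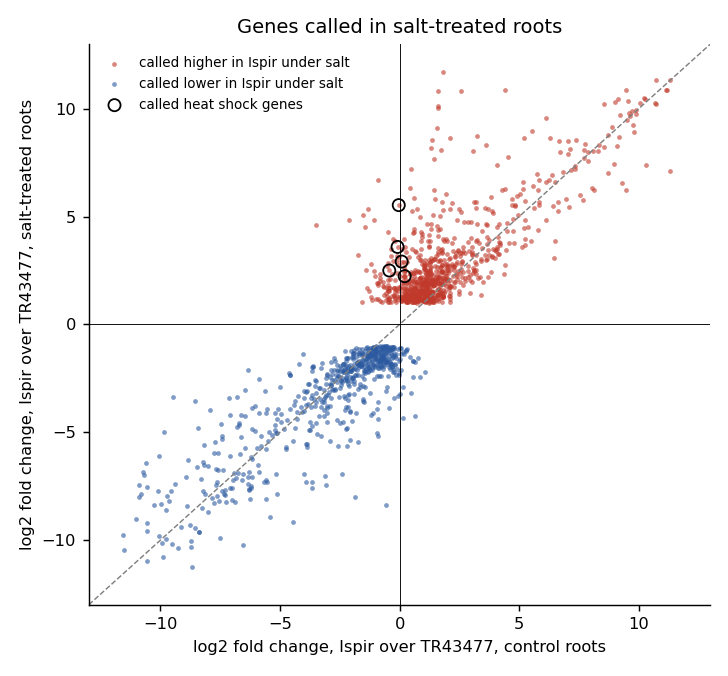
Each point is 1 of the 1431 genes called in salt-treated roots, with its log2 fold change, Ispir over TR43477, in control roots (x axis) and in salt-treated roots (y axis); the dashed line marks equal values and rings mark the 5 called heat shock genes. The 1325 genes of the same sign lie to the upper right and lower left, and the heat shock genes sit between −0.43 and 0.21 on the x axis.

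Fold changes were ranked among the 919 DEGs with over 3 counts in every one of the 6 libraries and a mean of at least 50 counts, and the top 2 in each direction were called with and without salt. Phvul.010G124800 (chromosome 10, 40592228 to 40597377) had 70.0, 69.4 and 60.4 CPM in Ispir roots and 0.737, 0.729 and 1.01 CPM in TR43477 roots (log2 fold change 6.32, SE 0.19, adjusted p = 8.7e-06), and Phvul.004G154900 (chromosome 4, 45841644 to 45850658) 25.4, 28.6 and 23.6 CPM against 0.402, 0.438 and 0.175 CPM. In the other direction, Phvul.004G090994 (chromosome 4, 24093081 to 24094015) had 0.830, 2.63 and 0.580 CPM in Ispir and 179, 123 and 138 CPM in TR43477 (log2 fold change −6.74, SE 0.46), and Phvul.010G071900 (chromosome 10, 32257751 to 32259884) 0.581, 0.640 and 0.943 CPM against 60.0, 41.6 and 39.6 CPM. All 4 kept their calls in each omission and were called in the same direction in control roots, with log2 fold changes of 8.04, 5.78, −7.61 and −6.68. The files give no name for them.

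A smaller set was counted in 1 genotype only: at most 3 counts in every salt-treated root library of the other genotype, and a mean of at least 50 counts in its own. There were 44 such genes in Ispir and 68 in TR43477. With each library scaled to the smallest total, a setting added after the data were seen, the counts were 48 in Ispir and 41 in TR43477. The larger number in TR43477 was thus not kept in that setting, and the part of its deeper libraries was not tested. Phvul.005G063900 (chromosome 5, 9738627 to 9748559) had 0, 1 and 1 counts in Ispir and 476, 885 and 569 counts in TR43477, at least 131-fold lower in Ispir. Phvul.007G117500 (chromosome 7, 16810334 to 16812423) had 0, 1 and 0 counts in Ispir and 409, 705 and 729 counts in TR43477, at least 125-fold lower. Neither had a count in control Ispir roots.

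Some of the genes counted in Ispir only under salt had counts in single control TR43477 plants, so the bounds given for them hold for the 3 salt-treated TR43477 plants and not for the line. Phvul.003G053501 (chromosome 3, 6967163 to 6967846) had 336, 305 and 290 counts in salt-treated Ispir roots and 0 in each TR43477 library, at least 161-fold higher in Ispir. In control TR43477 roots it had 217 counts in the first plant and 0 in the others. Phvul.007G245833 (chromosome 7, 36928316 to 36936165) had 166, 588 and 449 counts in Ispir and 3, 0 and 3 counts in TR43477 under salt, at least 201-fold higher in Ispir, but 3, 1 and 791 counts in the control TR43477 plants. Of the 44 Ispir-only genes, 28 stayed at the floor in all 3 control TR43477 libraries, 11 exceeded it in 1 library, 3 in 2 libraries and 2 in all 3. By plant, 10 of the 44 exceeded the floor in the first control TR43477 plant, 3 in the second and 10 in the third, and 9, 1 and 4 of them had at least 50 counts there. Of the 68 TR43477-only genes, 60 stayed at the floor in all 3 control Ispir libraries and 4 exceeded it in all 3. Over all 12 libraries of the other genotype, leaves included, 22 of the 44 and 44 of the 68 stayed at the floor.

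DEGs lay on every chromosome, from 3.84% of the genes tested on chromosome 7 to 9.30% on chromosome 11. Runs of at least 3 neighbouring tested genes called in the same direction numbered 10, of which 7 were higher and 3 lower in Ispir, with 34 genes in all. The longest held 6 genes lower in Ispir, on chromosome 8 from 2192931 to 2210858, with fitted absolute log2 fold changes of 1.77 to 10.79. The largest fit is no bound: that gene, Phvul.008G027200, had 0 counts in each Ispir library and was at least 55.9-fold lower there. Of the 6, 3 were counted in TR43477 only and all 6 were also called in control roots. The next held 4 genes lower in Ispir, on chromosome 6 from 23498308 to 23543835, of which 3 were called in control roots. The polygalacturonase gene Phvul.008G109200 opened a run of 3 on chromosome 8, from 12298571 to 12356759, in which every gene was counted in Ispir only and all 3 were called in control roots.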

How the data were processed

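RNA of whole roots was sequenced on poly(A)-selected, stranded libraries. The authors trimmed reads with Trimmomatic, checked them with FastQC, mapped them by HISAT2 on assembly v2.1 of P. vulgaris and counted them per gene in SeqMonk; the deposited tables hold raw counts for 27213 genes. The deposited p-values, FDR values and log2 fold changes of the authors' salt contrasts were not used. All plants were aligned to 1 reference, so a gene without counts and a gene without RNA cannot be told apart.

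Root tables of both genotypes were joined by gene identifier. Every gene with a count in any of the 6 libraries was fitted in edgeR 4.0.16 (R 4.3.3; TMM, quasi-likelihood, two-sided, Benjamini-Hochberg over all genes tested); genes were called below an adjusted p of 0.01 when they differed by more than 1 log2 unit. The SE was derived by dividing each log2 difference by the root of its F statistic. Levels are TMM-scaled CPM, mean ± SD over 3 plants. On simulated data for the salt-treated root comparison (23898 genes), 200 genes with a mean of at least 50 counts were changed. Of these, 88% were recovered at a change of 1.5 log2 units and 97% at 2. Recovery of genes with fewer counts was not simulated. Named genes are, per list, the called members (up to 6 each way), with the highest and lowest members of short lists, the 2 largest changes each way among called genes with over 3 counts in every library and a mean of at least 50, the 2 highest 1-genotype genes each way and the 3 smallest interaction p-values. Members and lists were chosen with earlier results of these data known. Alternatives were DESeq2 1.42.0, other normalizations, filters and tests, a replicate block and leaving out each library. Counting limits cover counting error only.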

Additional observations from a re-analysis of the deposited data

How the results depend on the processing

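The 1431 genes called in salt-treated roots (820 higher, 611 lower in Ispir) became 2343 (1357 and 986) with DESeq2, 2550 (1419 and 1131) at an adjusted p under 0.05, 2795 (1553 and 1242) with the likelihood ratio test and 569 (326 and 243) with glmTreat, which tests against the fold threshold itself; the 67 annotated calls became 116, 115, 124 and 27. Leaving out 1 library gave 632 to 1637 calls (370 to 883 higher, 262 to 754 lower) and 30 to 72 annotated calls. DESeq2 called 1428 of the 1431 in the same direction, and upper-quartile normalization, filterByExpr and the fit of all 12 root libraries kept 1397, 1366 and 1124. The 489 calls in control roots became 1552 with DESeq2 and 1377 at an adjusted p under 0.05, and ran from 52 without Ispir replicate 2 to 663 without TR43477 replicate 3. The 0 interaction calls became 253 with DESeq2 and 62 at an adjusted p under 0.05, and ran from 0 to 34 when 1 library was left out (34 without TR43477 control replicate 2, 3 without replicate 3). Genes counted in 1 genotype only numbered 130 in Ispir and 281 in TR43477 at a mean of at least 10 counts, 42 in TR43477 at a floor of 1 count and 41 in TR43477 after scaling to the smallest library, and ran from 41 to 60 in Ispir and from 60 to 95 in TR43477 when 1 library was left out. Runs of at least 4 neighbouring calls numbered 2. With the replicate number as a block, 1179 genes were called in salt-treated roots, 1044 of them shared, and 25 in control roots; same-numbered salt-treated plants of the genotypes correlated at 0.26, −0.09 and −0.07 in their deviations from the group means, so the numbers were not taken to pair plants. Of the 77 named genes that were called, none changed direction in any setting run. Depth limits genes near 3 counts, and 3 plants per genotype limit all calls; the cause of the differences between settings was not tested.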
